A study of Homo sapiens with 32 samples.

Results

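The genes described here are 10 classical marks of epithelial and mesenchymal cell identity, CDH1, CDH2, EPCAM, VIM, FN1, SNAI2, ZEB1, ZEB2, TWIST1 and TGFBI, chosen by name and matched by Ensembl identifier among the 60107 genes of the count table. All 10 were found. Epithelial cells hold to each other through E-cadherin, the product of CDH1, and carry the adhesion molecule EPCAM. Mesenchymal cells carry N-cadherin (CDH2), the intermediate filament protein vimentin (VIM) and the matrix protein fibronectin (FN1) instead. The zinc finger repressors SNAI2 (Slug), ZEB1 and ZEB2 and the basic helix-loop-helix factor TWIST1 are known to act on the E-cadherin gene during the epithelial to mesenchymal transition, and TGFBI is a secreted matrix protein named for its induction by TGF-beta, a growth factor that can start that transition.

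RNA came from 2 human lines, HEK293T, an embryonic kidney line carrying SV40 large T antigen, and U2OS, an osteosarcoma line of bone origin. Cells were exposed for 24 h to the topoisomerase I poison camptothecin (CPT), to an inhibitor of the DNA damage kinase ATM or to the solvent DMSO and left to recover for 48 h, or were wild type (WT) or ATM knockout (KO) U2OS cells grown untreated for 72 h. The KO cells were made with CRISPR/Cas9 and picked as single clones, and the study's methods give a higher CPT concentration for U2OS than for HEK293T cells. Each of 8 groups held 4 libraries, 32 in all, read as QuantSeq 3′ tags, and the study describes independent repeats, but the labels do not say which library came from which repeat, so p-values measure the spread between these libraries.

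The number in a title serves as the name of a library here. For numbers 18 to 33 the labels were kept (U2OS CPT 26 to 29, U2OS DMSO 30 to 33, HEK293T DMSO 22 to 25), except that 18 to 21, which carry the label ATM KO in HEK293T cells, were taken as the ATM inhibitor that the study describes for this line. For the 16 libraries numbered 1 to 17 the labels and the expression profiles disagree: 14 of them carry the name of the other line, 7 labelled U2OS and 7 labelled HEK293T. They were regrouped by column number, with 10, 12, 14 and 16 (labelled U2OS ATM KO) taken as HEK293T CPT, 11, 13, 15 (labelled U2OS WT) and 17 (labelled HEK293T DMSO) as HEK293T DMSO, 2, 4, 6 and 8 (labelled HEK293T CPT) as U2OS ATM KO, and 1 (labelled U2OS WT), 3, 5 and 7 (labelled HEK293T DMSO) as U2OS WT. The markers speak for the cell line of a library only, and the condition within these regrouped libraries is an assignment that the labels do not give. Each comparison between them is called regrouped.

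The summed level of 6 genes known from U2OS cells (CD44, CAV1, ANXA1, RUNX2, LGALS1, S100A6) was 701 to 1497 counts per 1000000 counts on genes (CPM) in the 16 libraries placed with U2OS and 28.8 to 130 CPM in the 16 placed with HEK293T. The sum of 5 genes known from HEK293T cells was 73.8 to 197 CPM in the former and 211 to 564 CPM in the latter. These 5 were LIN28B, NEFL, NEFM, PAX2 and INA. NEFM and INA were near 0 in U2OS and carried that difference with LIN28B, while NEFL was higher in U2OS DMSO than in HEK293T DMSO. PAX2 did not separate the lines, with group means of 2.58 to 7.17 CPM in U2OS and 3.97 to 7.51 CPM in HEK293T. Counts on genes ran from 1232674 (library 2) to 6362433 (library 16), so that 3 counts, the least taken as detected, equal 2.43 to 0.472 CPM, which covers counting error only. ATM itself did not mark the KO: its level was 57.2, 68.4, 53.4 and 63.5 CPM in libraries 1, 3, 5 and 7 and 61.7, 52.9, 54.7 and 34.2 CPM in libraries 2, 4, 6 and 8 (log2 fold change −0.31 ± 0.17 SE, adjusted p = 0.255). A 3′ tag outside the edited site does not test a knockout, so the regrouped KO label has no check in these data.

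RefSeq promoter windows of 300 bases (250 before and 50 after a transcription start, build GRCh38.p14) were used for 6 of the 10 genes. The genes were CDH2, FN1, TGFBI, VIM, ZEB1 and ZEB2, with 13 windows. They were searched on both strands for CAGGTG, the E-box that SNAI2 and the ZEB factors are known to bind (CACCTG on the other strand; matches did not overlap). Of the 13 windows 2 held it, both among the 7 of ZEB1, beside 20.6% of 35116 windows of this length. SNAI2 was left out of this search, and the share over all windows has no such exclusion. The window of ZEB1 at chr10:31318966-31319265 (plus strand) with 3 matches is shown because it holds the most, with the matches in capitals, and that of TGFBI at chr5:136028738-136029037 (plus strand), which holds none, because TGFBI is a gene that rose with CPT in U2OS cells.
ZEB1: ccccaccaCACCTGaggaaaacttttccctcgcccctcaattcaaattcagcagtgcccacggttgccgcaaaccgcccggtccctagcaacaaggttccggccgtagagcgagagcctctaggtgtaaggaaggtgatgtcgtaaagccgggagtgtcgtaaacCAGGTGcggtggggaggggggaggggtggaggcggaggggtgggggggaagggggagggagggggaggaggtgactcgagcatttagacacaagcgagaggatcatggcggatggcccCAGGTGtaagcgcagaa
TGFBI: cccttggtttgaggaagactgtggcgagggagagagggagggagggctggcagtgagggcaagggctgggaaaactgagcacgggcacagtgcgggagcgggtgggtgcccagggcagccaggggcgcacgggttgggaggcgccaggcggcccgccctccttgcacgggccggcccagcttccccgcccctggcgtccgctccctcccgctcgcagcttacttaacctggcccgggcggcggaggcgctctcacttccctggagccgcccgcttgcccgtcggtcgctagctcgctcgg
The match is a description of letters, and binding was not measured.

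**Figure D1:**
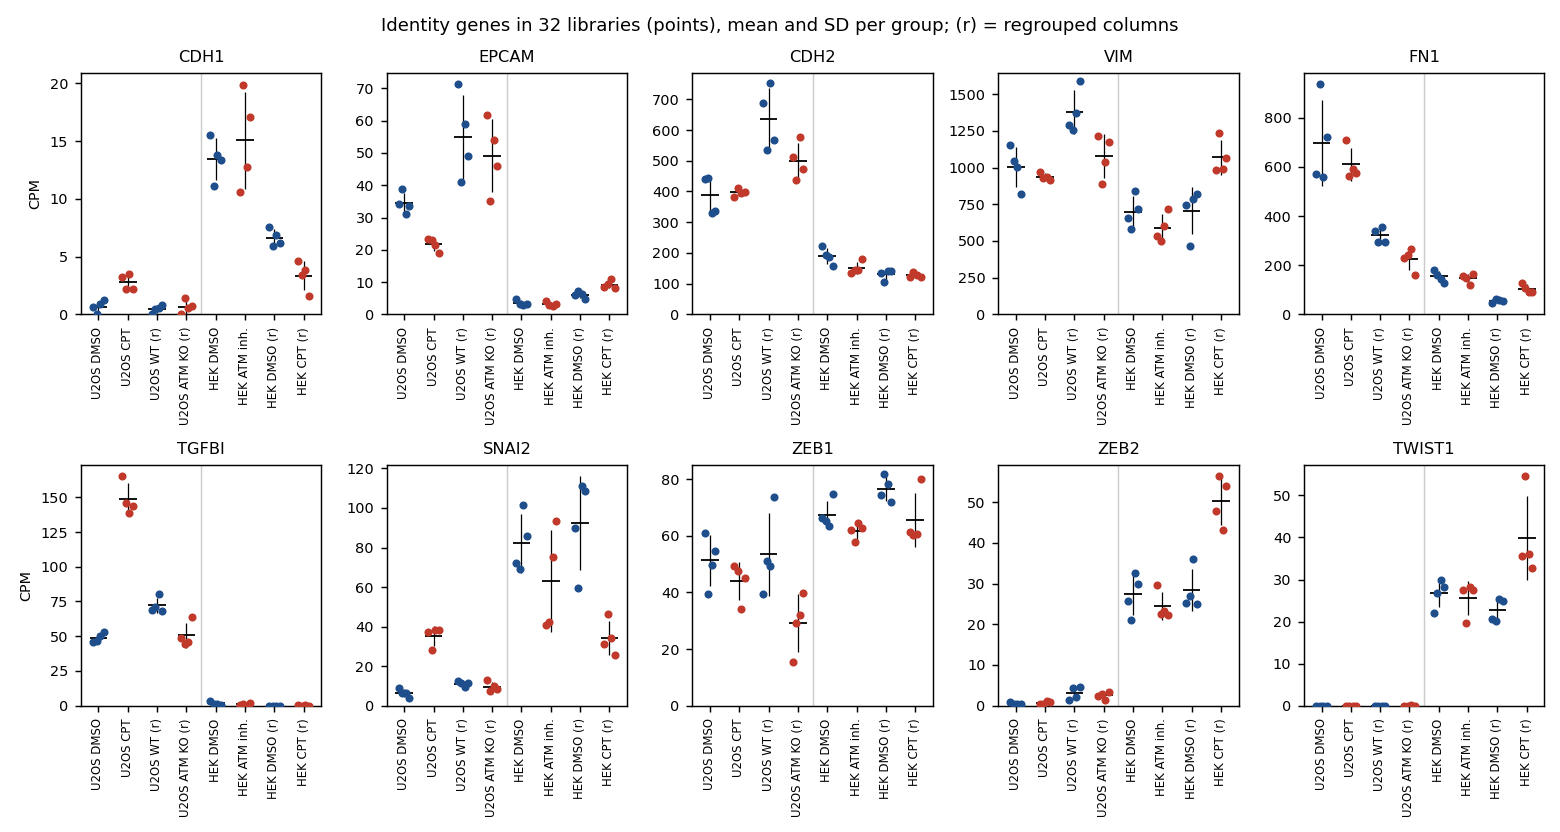
Level of each of the 10 genes in CPM (vertical axis) in every library (points, 32 per panel), by group along the horizontal axis, with the group mean (horizontal bar) and SD (vertical bar, n = 4). TWIST1 and ZEB2 lie near 0 in all U2OS groups, TGFBI near 0 in all HEK293T groups, and SNAI2 lies between 27.9 and 38.4 CPM in U2OS CPT against 4.09 to 8.95 CPM in U2OS DMSO; (r) marks regrouped libraries.

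The first question was how the lines differ before any drug. Neither line had one identity throughout. U2OS DMSO cells carried more of the mesenchymal genes CDH2, FN1 and TGFBI than HEK293T DMSO cells, and also more of the epithelial gene EPCAM, while HEK293T cells carried more CDH1 and, at the same time, more SNAI2, ZEB2 and TWIST1. Of the 10 genes 4 passed the threshold (absolute log2 fold change over 1 and adjusted p under 0.05) as higher in U2OS and 4 as lower, beside 21.8% and 18.1% of the 19739 genes tested.

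Of the epithelial adhesion genes, CDH1 was at 0.617, 0, 0.879 and 1.2 CPM in U2OS DMSO libraries 30 to 33 and at 15.6, 11.1, 13.8 and 13.3 CPM in HEK293T DMSO libraries 22 to 25. All U2OS values lay below all HEK293T values, with a log2 fold change of −3.92 ± 0.35 SE (adjusted p = 8.94e-12), and the U2OS values rest on 0 to 5 counts each. EPCAM ran the other way, at 34.3, 38.9, 31.1 and 33.6 CPM in U2OS against 4.79, 3.14, 3.01 and 3.26 CPM in HEK293T (log2 fold change 3.5 ± 0.20, adjusted p = 3.99e-17). The 2 epithelial genes thus marked different lines.

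Among the mesenchymal genes, CDH2 was at 440, 444, 328 and 338 CPM in U2OS DMSO and at 222, 192, 187 and 159 CPM in HEK293T DMSO (log2 fold change 1.25 ± 0.11, adjusted p = 1.41e-11). FN1 was at 573, 937, 561 and 720 CPM in the former and at 182, 162, 144 and 129 CPM in the latter (2.40 ± 0.14, adjusted p = 1.06e-16). Both groups were apart for either gene. TGFBI was at 46.0, 46.8, 49.8 and 52.9 CPM in U2OS and at 3.59, 1.14, 1.25 and 0.592 CPM in HEK293T (log2 fold change 5.11 ± 0.24, adjusted p = 4.60e-19), and 2 to 12 counts per library lie behind the latter. VIM, at 823 to 1151 CPM against 581 to 839 CPM, overlapped between the lines and stayed under the fold cutoff (0.75 ± 0.11, adjusted p = 6.01e-07).

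The repressor genes were mostly HEK293T genes. SNAI2 was at 8.95, 6.19, 6.45 and 4.09 CPM in U2OS DMSO and at 72.1, 69.1, 102 and 85.6 CPM in HEK293T DMSO (log2 fold change −3.47 ± 0.18, adjusted p = 4.68e-18). ZEB2 had 1 to 3 counts in each U2OS DMSO library and 21.1 to 32.6 CPM in HEK293T DMSO, a ratio of 53.9 with an exact 95% counting interval of 25.9 to 135. TWIST1 had no count in U2OS DMSO and 22.1, 26.8, 29.8 and 28.1 CPM in HEK293T DMSO, at least 122-fold higher when set against 3 counts over the 4 U2OS libraries. The fourth repressor gene, ZEB1, was at 61.1, 39.6, 49.8 and 54.8 CPM in U2OS and at 66.4, 65.4, 63.6 and 74.7 CPM in HEK293T. Its groups did not overlap, but after TMM scaling the difference of −0.17 ± 0.13 on the log2 scale missed the threshold (adjusted p = 0.262).

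Across all 8 groups the lines stayed apart for TWIST1, ZEB2, TGFBI, CDH2 and EPCAM, but overlapped for CDH1, SNAI2 and FN1. CDH1 was at 2.17 to 3.46 CPM in U2OS CPT and 1.57 to 4.59 CPM in regrouped HEK293T CPT. SNAI2 was at 27.9 to 38.4 and 25.5 to 46.3 CPM in the same groups. FN1 reached down to 161 CPM in regrouped U2OS ATM KO and up to 182 CPM in HEK293T DMSO. TWIST1 had no count in 15 of 16 U2OS libraries and 1 count in library 6, and was at 19.6 to 54.6 CPM in the HEK293T libraries. ZEB2 reached 1.04 CPM at most in U2OS libraries 26 to 33 and 1.39 to 4.64 CPM in the regrouped U2OS libraries, all under the lowest HEK293T library at 21.1 CPM. TGFBI was at 44.3 CPM or above in every U2OS library and at 3.59 CPM or below in every HEK293T library. Control groups of the same line differed in level too, as with FN1 at 698 ± 175 CPM (SD, n = 4) in U2OS DMSO and 321 ± 30.4 CPM in regrouped U2OS WT. The libraries of these 2 groups differ in treatment and in the number range of the libraries, which cannot be told apart. Between HEK293T DMSO and regrouped HEK293T DMSO, both taken as DMSO, FN1 was at 154 and 55.1 CPM on average and CDH1 at 13.5 and 6.65 CPM. EPCAM ran the other way, at 3.55 and 6.11 CPM, and ZEB2 was alike at 27.3 and 28.3 CPM. The cause was not tested.

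**Figure D2:**
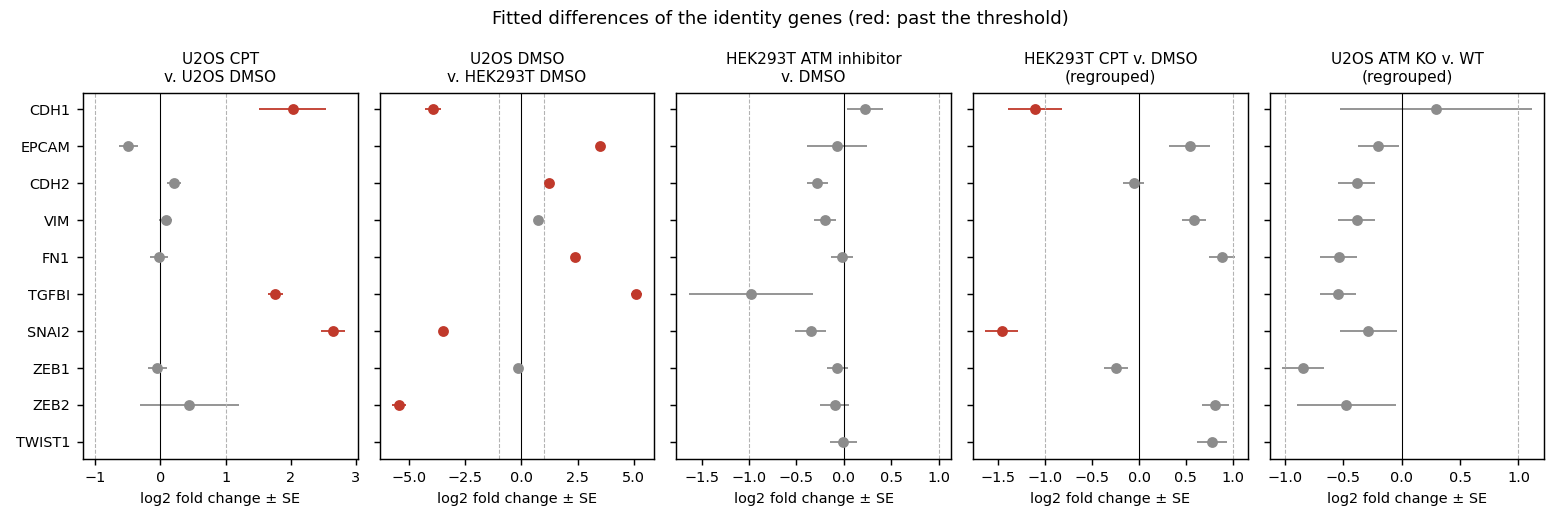
Log2 fold change (horizontal axes, bars ± SE) of each of the 10 genes in 5 comparisons of 4 against 4 libraries, red where the threshold was passed, with dashed lines at ±1. SNAI2, CDH1 and TGFBI lie to the right in U2OS CPT, SNAI2 and CDH1 to the left in regrouped HEK293T CPT, and no gene is red for the ATM inhibitor or the regrouped ATM KO; genes with no estimate, or with a group at no count, are left out.

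The next question was what CPT changed in U2OS cells. SNAI2, CDH1 and TGFBI rose, 3 of the 9 genes that could be tested and the only ones past the threshold, beside 7.97% of the 19080 genes tested that rose and 5.5% that fell. TWIST1 had no count in either group. The bulk mesenchymal marks CDH2, VIM and FN1 did not pass the test.

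SNAI2 was at 37.1, 27.9, 38.4 and 38.1 CPM in CPT libraries 26 to 29, against 8.95, 6.19, 6.45 and 4.09 CPM in DMSO libraries 30 to 33. All CPT libraries lay above all DMSO libraries, at means of 35.4 ± 5.0 and 6.42 ± 1.99 CPM (SD, n = 4), and the fitted rise was 6.27-fold (log2 fold change 2.65 ± 0.19 SE, adjusted p = 7.57e-13). With CPT the SNAI2 level of U2OS cells was still below that of every HEK293T DMSO library, of which the lowest was regrouped library 13 at 59.4 CPM. TGFBI was at 165, 146, 139 and 144 CPM with CPT and at 46.0, 46.8, 49.8 and 52.9 CPM with DMSO. It rose 3.40-fold (log2 fold change 1.77 ± 0.12, adjusted p = 4.25e-13).

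CDH1, the epithelial gene that SNAI2 is known to repress, rose as well. Its level was 3.24, 2.17, 3.46 and 2.18 CPM with CPT, on 7 to 11 counts per library, and 0.617, 0, 0.879 and 1.2 CPM with DMSO, on 0 to 5 counts. The groups did not overlap (log2 fold change 2.03 ± 0.51, adjusted p = 0.00232), yet the CPT level stayed below every HEK293T DMSO library (lowest 5.92 CPM, regrouped library 13). A stricter filter on low counts leaves CDH1 untested. The other epithelial gene, EPCAM, was at 23.2, 23, 21.5 and 19 CPM with CPT and at 34.3, 38.9, 31.1 and 33.6 CPM with DMSO. All 4 CPT values lay lower, but the difference was under the fold cutoff (−0.49 ± 0.14, adjusted p = 0.00750).

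The other genes of U2OS cells gave small differences with CPT. CDH2 was at 383 to 411 CPM with CPT and 328 to 444 CPM with DMSO (log2 fold change 0.21 ± 0.11, adjusted p = 0.134). VIM was at 917 to 973 CPM against 823 to 1151 CPM (0.08 ± 0.11, adjusted p = 0.622). FN1 was at 565 to 711 CPM against 561 to 937 CPM (−0.02 ± 0.13, adjusted p = 0.925), and ZEB1 at 34.3 to 49.4 CPM against 39.6 to 61.1 CPM (−0.05 ± 0.14, adjusted p = 0.844). All of these groups overlapped. ZEB2 had 1 to 3 counts in every library of both groups. TMM scaling matters for such small values: with library totals alone the median of all genes moved to −0.16 on the log2 scale and VIM to −0.10, while the same 3 genes passed. That scaling gave 1251 genes higher and 1535 lower, in place of 1520 and 1049.

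Related genes from lists of known identity genes were read beside these, where 7.97% of all genes tested rose and 5.5% fell. Of 38 other epithelial genes 26 could be tested in U2OS CPT, of which 7 rose, 1 fell and 18 did not pass, at a median log2 fold change of 0.49 beside 0.0079 over all genes tested. Desmoplakin (DSP), which anchors desmosomes, went from 0 to 2 counts per DMSO library to 31.5 to 40.0 CPM, a ratio of 121 (exact 95% counting interval 46.9 to 445). The laminin chain gene LAMA3 went from 0 to 2 counts to 13.5 to 15.5 CPM, a ratio of 66.9 (22.5 to 327). The tight junction gene CLDN1 rose too (log2 fold change 3.63 ± 0.17, adjusted p = 3.68e-17). With the stricter filter 4 of these genes rose and 0 fell, where 919 of all 12440 genes tested rose and 733 fell.

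Of 35 other mesenchymal genes 30 could be tested, of which 6 rose, 4 fell and 20 did not pass (median 0.25). The hyaluronan receptor CD44 rose by 2.72 ± 0.12 on the log2 scale (adjusted p = 6.85e-18). The surface protease FAP (2.07 ± 0.19, adjusted p = 3.16e-10) and fibrillin FBN1 (1.61 ± 0.13, adjusted p = 1.78e-11) rose as well. The transcription factor genes TCF4 (−1.94 ± 0.12, adjusted p = 3.50e-14), PRRX1 (−1.61 ± 0.26, adjusted p = 9.11e-06) and FOXC1 (−1.39 ± 0.13, adjusted p = 2.58e-10) fell, as did the myelin protein gene PMP22 (−1.86 ± 0.13, adjusted p = 3.77e-13). With library totals alone, which moved the median of all genes as given above, the list had 6 higher and 7 lower. CD44 is also among the U2OS markers, whose sum was 1442 to 1497 CPM with CPT and 701 to 816 CPM with DMSO, with 3 of 6 past the threshold and none at 0. The part of this in the other values was not tested.

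Of 25 genes of the TGF-beta pathway all were tested, of which 2 rose, 1 fell and 22 did not pass (median −0.0039). That is near the share over all genes tested, 7.97% higher and 5.5% lower, which also stands beside the lists that follow. INHBA, which codes for the activin A subunit, rose from 319 ± 36.7 to 979 ± 58.0 CPM (SD, n = 4; log2 fold change 1.78 ± 0.12, adjusted p = 2.46e-13), and the ligand gene TGFB2 from 202 ± 28.8 to 487 ± 80.3 CPM (1.45 ± 0.12, adjusted p = 2.56e-11). The ligand gene TGFB3 fell from 11.6 ± 1.12 to 4.09 ± 0.464 CPM (−1.32 ± 0.23, adjusted p = 2.53e-05). The next list held other cadherins, catenins and partners of these such as vinculin, afadin and the nectins, and is called cadherin and catenin genes below. Of its 15 tested genes 2 rose and 1 fell (median 0.20). T-cadherin CDH13 rose by 1.96 ± 0.17 on the log2 scale (adjusted p = 1.20e-10) and the catenin ARVCF by 1.54 ± 0.17 (adjusted p = 7.15e-09). Of 15 tested partners, regulators and antisense genes of the repressors 1 rose and 1 fell (median −0.47). They were FBXW7, part of a ubiquitin ligase (1.14 ± 0.12, adjusted p = 8.26e-09), and ID2, an inhibitor of helix-loop-helix factors (−1.22 ± 0.19, adjusted p = 8.38e-06). With library totals alone this list had 0 higher and 3 lower.

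In HEK293T cells the ATM inhibitor changed none of the 10 genes past the threshold, and 0% of the 18413 genes tested passed it as higher and 0% as lower (edgeR's quasi-likelihood test; 1019 genes at an unadjusted p under 0.05; 0 genes with DESeq2 and 2 with edgeR's likelihood ratio test). SNAI2 was at 40.7, 42.5, 75.1 and 93.5 CPM with the inhibitor (libraries 18 to 21) and at 72.1, 69.1, 102 and 85.6 CPM with DMSO (−0.35 ± 0.16 on the log2 scale, adjusted p = 0.887). The inhibitor libraries were spread over both sides of the lowest DMSO library. CDH1 was at 10.6, 19.9, 12.8 and 17.1 CPM against 15.6, 11.1, 13.8 and 13.3 CPM (0.22 ± 0.19, adjusted p = 0.943). CDH2 was at 135 to 179 CPM against 159 to 222 CPM (−0.28 ± 0.11, adjusted p = 0.851). The other differences ran from −0.98 ± 0.65 for TGFBI, which had 0 to 12 counts per library, to −0.01 ± 0.14 for TWIST1, and all 10 pairs of groups overlapped. At an unadjusted p under 0.05 there were 2 of the 10, SNAI2 and CDH2, both lower, and DESeq2 and the likelihood ratio test passed 0 of the 10. The 5 related lists had 0 of 104 genes past the threshold with the same 3 tests, and 3 at an unadjusted p under 0.05. At an SE of 0.65 for TGFBI and 0.31 for EPCAM a difference just past the fold cutoff could be missed. The size of difference that could be missed for the other genes was not tested.

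CPT in HEK293T cells was read from the regrouped libraries, 10, 12, 14 and 16 against 11, 13, 15 and 17. Here SNAI2 and CDH1 fell, 2 of 10 genes past the threshold, and none rose, beside 4.45% of the 19464 genes tested that fell and 9.52% that rose. FN1, ZEB2, TWIST1 and VIM were higher with an adjusted p under 0.05 but under the fold cutoff. The likelihood ratio test of edgeR passed the same 2 genes as lower and TGFBI as higher (adjusted p = 0.0318), a gene with 0 to 2 counts in each of these libraries.

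SNAI2 was at 30.9, 46.3, 34.2 and 25.5 CPM in the libraries taken as CPT and at 90.1, 59.4, 111 and 109 CPM in those taken as DMSO. All of the former lay below all of the latter (34.2 ± 8.82 against 92.4 ± 24.0 CPM, SD, n = 4), with a log2 fold change of −1.46 ± 0.17 (adjusted p = 8.81e-07). CDH1 was at 4.59, 3.40, 3.84 and 1.57 CPM against 7.58, 5.92, 6.89 and 6.21 CPM (−1.11 ± 0.29, adjusted p = 0.00420), again with no overlap. This call rests on library 16, the lowest: without it the log2 fold change was −0.77 (adjusted p = 0.0322), under the fold cutoff.

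ZEB2 was at 47.8, 56.5, 43.2 and 54.1 CPM in the libraries taken as CPT and at 25.3, 27.1, 36.0 and 25 CPM in those taken as DMSO (log2 fold change 0.81 ± 0.14, adjusted p = 0.000128). TWIST1 was at 35.5, 54.6, 36.1 and 32.8 CPM against 20.7, 20.1, 25.3 and 24.8 CPM (0.78 ± 0.16, adjusted p = 0.000578). Neither pair of groups overlapped, so that these 2 repressor genes and SNAI2 stood on opposite sides of 0, while ZEB1 had 60.2 to 80.0 CPM against 72.0 to 81.9 CPM (−0.24 ± 0.13, adjusted p = 0.134). FN1 was at 128, 106, 91.5 and 90.8 CPM against 47.8, 62.6, 57.8 and 52.3 CPM (0.89 ± 0.14, adjusted p = 2.73e-05). VIM was at 985 to 1238 CPM against 469 to 820 CPM (0.59 ± 0.13, adjusted p = 0.00126). EPCAM was at 8.57, 9.26, 10.9 and 8.17 CPM against 6.06, 7.28, 6.22 and 4.88 CPM, with no overlap but past neither cutoff (0.54 ± 0.22, adjusted p = 0.0552). CDH2 was at 122 to 136 CPM against 105 to 141 CPM (−0.06 ± 0.11, adjusted p = 0.738), and TGFBI had 0 to 2 counts per library, under the detection limit in both groups.

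Of the related lists, 11 of 32 tested mesenchymal genes rose and 0 fell (median 0.46), 4 of 25 TGF-beta genes rose and 0 fell (median 0.15), and 5 of 29 epithelial genes rose and 0 fell (median 0.54), with a median of 0.041 over all genes tested. With the stricter filter on low counts the first count was 4, where 858 of all 12861 genes tested rose and 603 fell. Over all genes tested, without that filter, 9.52% rose and 4.45% fell. FBN1 rose by 1.08 ± 0.19 on the log2 scale (adjusted p = 0.000158), and the epithelial transcription factor genes GRHL1 (1.99 ± 0.23, adjusted p = 4.52e-07) and KLF5 (1.06 ± 0.14, adjusted p = 5.03e-06) rose as well. Among TGF-beta genes the activin antagonist FST (1.89 ± 0.27, adjusted p = 8.46e-06) and the pseudoreceptor BAMBI (1.79 ± 0.19, adjusted p = 1.73e-07) rose. Of 14 cadherin and catenin genes 1 rose, and of 16 repressor partners 2 rose, ID1 (2.3 ± 0.19, adjusted p = 5.02e-09) and ID3 (1.06 ± 0.12, adjusted p = 4.95e-07), with 0 lower in both lists.

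Measures other than these genes moved with this comparison. Of the 6 U2OS markers 5 could be tested and 4 rose, with a sum of 90.4 to 130 CPM in the libraries taken as CPT and 28.8 to 36.6 CPM in those taken as DMSO and none at 0 in every library, against 701 CPM at the lowest in U2OS libraries. The share of reads on no gene was 15.8% to 18.5% in the former and 9.39% to 11% in the latter. Of the U2OS markers, ANXA1 was at 32.3 CPM on average in the libraries taken as CPT and 4.46 CPM in those taken as DMSO. LGALS1 was at 28.4 and 7.38 CPM, CAV1 at 40.5 and 20.9 CPM, and RUNX2 at 2.19 and 0.752 CPM. CD44 had 1 to 4 and 0 to 2 counts per library, and S100A6 was at 0.153 and 0.0554 CPM. TGFBI, at 44.3 CPM or above in every U2OS library, had 0 to 2 counts in each library of this comparison. The part of these measures in the result was not tested. Taken by the deposited labels instead, HEK293T CPT against DMSO compares libraries 2, 4, 6 and 8 with 8 libraries of both profiles. There 3 of the 10 genes were lower and none higher, beside 715 lower and 478 higher of 20676 genes tested.

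**Figure D3:**
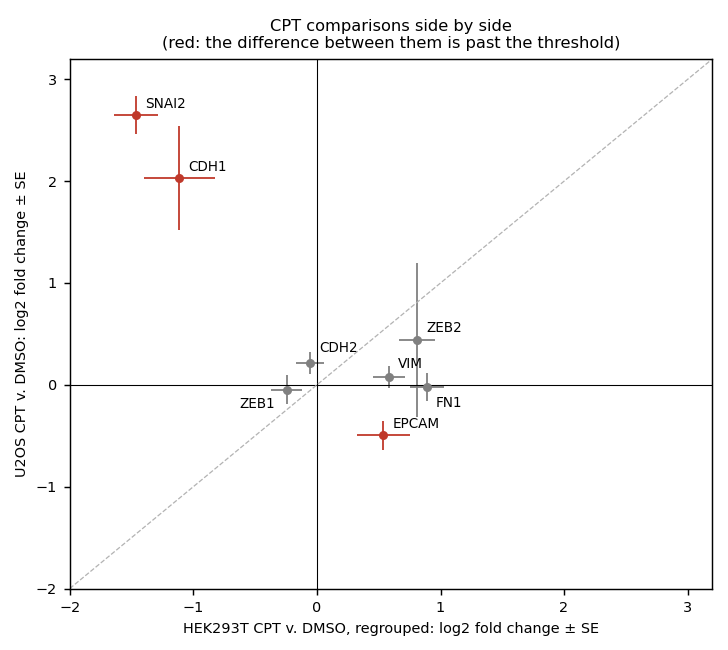
Log2 fold change with CPT (± SE) in U2OS cells (vertical axis) against that in regrouped HEK293T cells (horizontal axis) for 8 of the 10 genes, red where the difference of the 2 passed the threshold, with a dashed line of equality. SNAI2 and CDH1 lie at the upper left, higher in U2OS and lower in HEK293T, and EPCAM at the lower right. TWIST1 has no estimate in U2OS, and TGFBI, with 0 to 2 counts in each regrouped HEK293T library, is left out.

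The difference between the 2 CPT comparisons was tested in one fit of 16 libraries. SNAI2 and CDH1 passed as higher in U2OS relative to HEK293T and EPCAM as lower, beside 5.15% and 6.71% of 22363 genes tested. The difference was 4.12 ± 0.26 on the log2 scale for SNAI2 (adjusted p = 2.38e-16) and 3.16 ± 0.57 for CDH1 (adjusted p = 4.12e-05). Both genes moved together in each line, up in U2OS and down in HEK293T, and the U2OS and HEK293T levels of SNAI2 with CPT came to lie side by side at 27.9 to 38.4 and 25.5 to 46.3 CPM. For EPCAM the difference of −1.03 ± 0.25 (adjusted p = 0.00209) was at the fold cutoff, and went under it, to between −0.93 and −0.999, without library 14, 17, 28, 29 or 31 each. FN1 (−0.90 ± 0.20, adjusted p = 0.000646) and VIM (−0.50 ± 0.17, adjusted p = 0.0315) were under the cutoff, and FN1 was past it with library totals alone (−1.1). CDH2, ZEB1 and ZEB2 differed by 0.27 ± 0.16, 0.19 ± 0.20 and −0.36 ± 0.76. TGFBI differed by −1.31 ± 0.79 (adjusted p = 0.277), on 0 to 2 counts in each regrouped HEK293T library. Line, CPT concentration and number range of the libraries cannot be told apart in this test.

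The last question was whether loss of ATM changed these genes in U2OS cells, read from regrouped libraries 2, 4, 6 and 8 against 1, 3, 5 and 7. None of the 9 genes that could be tested passed, beside 2.8% of the 18591 genes tested as higher and 2.44% as lower. At an unadjusted p under 0.05 there were 5 of the 9, all lower, beside 4724 of the 18591 genes tested, in either direction. DESeq2 and the likelihood ratio test passed 0 of the 9 as well. By the deposited labels (10, 12, 14 and 16 against 1, 11, 13 and 15) the count was 0. Over all 19530 genes tested by those labels 398 were higher and 233 lower. That fit mixes libraries of both profiles, with 10, 12, 14 and 16 taken here as HEK293T CPT. It therefore does not test loss of ATM in U2OS cells. In the regrouped comparison ZEB1, FN1 and TGFBI were lower with an adjusted p under 0.05 and under the fold cutoff. ZEB1 was at 15.4, 29.4, 32.1 and 39.9 CPM in the libraries taken as KO and at 39.5, 51.1, 49.3 and 73.9 CPM in those taken as WT, with a small overlap (−0.84 ± 0.18 on the log2 scale, adjusted p = 0.000484). FN1 was at 231, 243, 266 and 161 CPM against 339, 295, 354 and 295 CPM (−0.54 ± 0.16, adjusted p = 0.0161), and TGFBI at 48.7, 44.3, 46.0 and 63.6 CPM against 69.2, 71.0, 80.5 and 68.4 CPM (−0.55 ± 0.15, adjusted p = 0.0105). For both the groups were apart.

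The remaining genes of U2OS KO cells differed by less. CDH2 was at 438 to 577 CPM against 534 to 753 CPM (−0.39 ± 0.16, adjusted p = 0.0986) and VIM at 888 to 1217 CPM against 1255 to 1588 CPM (−0.39 ± 0.16, adjusted p = 0.101). SNAI2 was at 13, 7.22, 9.89 and 8.25 CPM against 12.7, 11.2, 9.31 and 11.5 CPM (−0.28 ± 0.24, adjusted p = 0.520), and EPCAM at 35.1 to 61.7 CPM against 41.1 to 71.3 CPM (−0.20 ± 0.17, adjusted p = 0.525). CDH1 had 10 counts over the KO libraries and 6 over the WT libraries, a ratio of 1.24 with an exact 95% counting interval of 0.407 to 4.14. A change as large as that with CPT was thus not excluded here. ZEB2, on 2 to 19 counts per library, differed by −0.47 ± 0.42 (adjusted p = 0.540). Libraries 1 and 2 were the shallowest, and without both the count past the threshold was again 0.

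In the related lists of this comparison, 1 of 31 tested mesenchymal genes rose and 8 fell (median −0.68, beside 0.040 over all genes). Of 27 epithelial genes 7 rose and 2 fell (median 0.41). Over all genes tested 2.8% rose and 2.44% fell. Cadherin 11 (CDH11, −2.64 ± 0.22, adjusted p = 7.65e-14) and the matrix protein tenascin C (TNC, −2.59 ± 0.25, adjusted p = 6.28e-12) fell. The vesicle transport gene MAL2 (1.34 ± 0.20, adjusted p = 1.20e-06) and CLDN1 (1.1 ± 0.19, adjusted p = 1.76e-05) rose, while the claudin CLDN4 fell (−2.09 ± 0.21, adjusted p = 3.23e-11). Of 25 TGF-beta genes 1 rose and 3 fell, among them INHBA (−2.03 ± 0.16, adjusted p = 9.21e-15) and LTBP1, which binds latent TGF-beta (−1.07 ± 0.15, adjusted p = 2.82e-07). CDH13 fell by 1.97 on the log2 scale (SE 0.23, adjusted p = 2.09e-09), 1 of 2 cadherin and catenin genes that fell of 15, and 0 of 15 repressor partners passed. Line markers were read beside these counts. The sum of the 6 U2OS markers was 959 to 1361 CPM in the libraries taken as KO and 791 to 1012 CPM in those taken as WT, with none of the 6 past the threshold. The sum of the 5 HEK293T markers was 73.8 to 159 CPM and 89.6 to 159 CPM, with 1 of the 4 that could be tested past the threshold, PAX2, a kidney transcription factor gene, at 2.58 ± 0.861 CPM in WT and 7.17 ± 1.32 CPM in KO (SD, n = 4). The part of these in the other values was not tested. The KO cells were picked as clones, and clone and genotype cannot be told apart.

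Set against the CPT comparison of the same line in one fit, SNAI2 differed by 2.93 ± 0.31 on the log2 scale (adjusted p = 1.84e-11) and TGFBI by 2.31 ± 0.20 (adjusted p = 1.39e-14), both higher with CPT relative to KO. These were 2 of 9 genes tested, beside 5.58% of 20539 genes higher and 5.19% lower. ZEB1 (0.79 ± 0.24, adjusted p = 0.0135) and CDH2 (0.60 ± 0.20, adjusted p = 0.0220) were under the fold cutoff, and CDH1 differed by 1.75 ± 1.01 (adjusted p = 0.247). Drug or genotype, clone, type of control (DMSO or untreated WT) and number range of the libraries cannot be told apart in this test. The KO and WT groups in it are the regrouped ones, whose condition the labels do not give. INHBA and CDH13 rose with CPT in U2OS and fell in the regrouped KO, and CLDN1 rose in both.

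The line difference extended to the related lists, read beside 21.8% higher and 18.1% lower of all genes tested. Of 32 tested mesenchymal genes 22 were higher and 4 lower in U2OS DMSO than in HEK293T DMSO (median log2 fold change 2.58, beside 0.014 over all genes tested), as were 14 and 3 of 25 TGF-beta genes (median 1.35) and 8 and 0 of 15 cadherin and catenin genes (median 1.02). Osteonectin SPARC was at 950 ± 89.6 CPM (SD, n = 4) in U2OS and 6.88 ± 3.90 CPM in HEK293T, and the surface protein gene THY1 at 136 ± 15.9 and 1.39 ± 0.363 CPM. The proteoglycan gene VCAN ran against the list, at 2.31 ± 1.02 CPM in U2OS and 182 ± 13.1 CPM in HEK293T, as did FOXC1 at 84.0 ± 3.88 and 562 ± 81.5 CPM. The TGF-beta feedback gene PMEPA1 was at 1491 ± 98.0 CPM in U2OS and 33.9 ± 3.36 CPM in HEK293T. Of 26 epithelial genes 9 were higher and 10 lower (median −0.011): CLDN4 and AP1M2 were U2OS genes, at 20.8 to 39.6 and 21.1 to 38.9 CPM, and DSP and SPINT2 were HEK293T genes, with 0 to 3 counts per U2OS library and 234 to 272 and 20.7 to 41.9 CPM in HEK293T. Of 15 repressor partners 4 were higher and 4 lower. The ID genes split, with ID1 at 119 ± 28 CPM in U2OS and 4.29 ± 1.73 CPM in HEK293T, and ID4 at 5.23 ± 2.10 and 91.2 ± 15 CPM. Fewer cells of a kind and less RNA per cell cannot be told apart in bulk RNA.

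Genes whose pattern was most like that of each of 8 of these genes were sought among 9573 genes at 10 CPM or above on average, by Pearson's r of log2(CPM + 1) over the 32 libraries after centring on each comparison. The points share control libraries and depth, and r is given as a description. For SNAI2 they were PRKAB2 (r = 0.89), which codes for a subunit of the kinase AMPK, and the integrin gene ITGA2 (0.88). For TGFBI one was GLIPR1 (0.84). For CDH2 they were CD164 (0.90) and TMED4 (0.86), and for TWIST1 UHMK1 (0.85) and FST (0.83). FN1 was followed by SNORA79B (0.83) and CEMIP2 (0.80), ZEB2 by KDM5B and BBC3 (0.79 each), EPCAM by FGF9 (0.75) and C2orf74-DT (0.74), and CDH1 by AK4 (0.73) and METTL8 (0.71). None of the genes named is one of the 10 genes themselves.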

How the data were processed

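Expression in HEK293T and U2OS cells was measured as QuantSeq 3′ tags with molecular identifiers. The authors deposited counts per gene from the Lexogen QuantSeq FWD UMI pipeline, per the labels and the study's methods without normalization. The genome build and annotation are not given in the sources used here. The 5 summary and 92 spike-in rows were left out, and 56104 of 60107 identifiers had a symbol. CPM are counts per 1000000 counts on genes. Genes with over 1 count in at least 2 libraries of a fit were tested with edgeR 4.0.16 in R 4.3.3 (TMM, quasi-likelihood, Benjamini-Hochberg over all genes tested), the filter and thresholds of the study, which used the likelihood ratio test. SE is the fitted log2 fold change divided by the root of F. Each comparison was fitted on its own libraries.

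All 10 identity genes are named, and of each list the genes past the threshold with the largest change, at 10 CPM or above in a group and with no overlap (4 per direction in U2OS CPT, 2 elsewhere). The genes and lists were chosen with earlier results of these data known. The procedure was tested on simulated data. Alternatives were the likelihood ratio test, DESeq2 1.42.0, RLE factors, other filters, no fold cutoff, all libraries in one fit, the deposited labels, other controls and each library left out. Added after seeing the data were library totals alone and leaving out libraries 1 and 2. Promoter windows are RefSeq's. Some genes that the naming rule selects are not reported here.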

Additional observations from a re-analysis of the deposited data

Results flagged for a closer look

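In groups of 4 libraries, 1 library can stand far from the others (Dixon's test). This was so for 6 of 66 groups tested, where chance alone flags about 1 in 20: EPCAM in library 22 (4.79 CPM, HEK293T DMSO), SNAI2 in library 27 (27.9 CPM, U2OS CPT), ZEB1 in library 16 (80.0 CPM) and TWIST1 in library 12 (54.6 CPM), both regrouped HEK293T CPT, and ZEB2 in library 18 (29.6 CPM) and TWIST1 in library 19 (19.6 CPM), both HEK293T ATM inhibitor.

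Tested differences between 2 effects passed the threshold for SNAI2 (4.12 on the log2 scale), CDH1 (3.16) and EPCAM (−1.03) between CPT in U2OS and regrouped HEK293T cells, and for SNAI2 (2.93) and TGFBI (2.31) between CPT and the regrouped ATM KO in U2OS cells.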

How the results depend on the processing

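Across the alternatives that left out no library, the count of identity genes past the threshold stayed the same within a factor of 1.5 in 56 of 60 cases. The other 4 were those with no fold cutoff, with 6 in regrouped HEK293T CPT, 3 in the regrouped ATM KO, 5 for the difference between lines and 4 for CPT minus KO. Leaving out each library gave 1 to 2 in regrouped HEK293T CPT (1 without library 16) and 2 to 4 for the difference between lines.

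Counts over all genes, in the order U2OS CPT, line difference, regrouped HEK293T CPT and regrouped ATM KO, were 1652, 5090, 1461 and 644 with edgeR's filterByExpr. With no fold cutoff they were 6091, 12256, 6785 and 2415, and 4544 and 3634 for the differences between lines and between CPT and KO. For the ATM inhibitor there were 2 genes with the likelihood ratio test, 2 with no filter, and 1 each with library totals alone, no fold cutoff and all 32 libraries in one fit, and 0 to 14 with each library left out (14 without library 21). By the deposited labels there were 1193 genes for HEK293T CPT and 631 for ATM KO. With library totals alone the difference between lines had 792 genes higher and 2019 lower (1151 and 1500 with TMM), and CPT minus KO 864 and 1656 (1147 and 1066).

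Signs turned for small values. With a library left out, FN1 (−0.14 to 0.12) and ZEB1 (−0.17 to 0.056) turned in U2OS CPT, EPCAM (−0.24 to 0.091), FN1 (−0.087 to 0.064) and TWIST1 (−0.091 to 0.082) with the ATM inhibitor, and CDH1 (−0.062 to 0.61) in the regrouped ATM KO. VIM in U2OS CPT was −0.10 and ZEB1 in the difference between lines −0.0016 with library totals alone. With all 8 HEK293T DMSO labels as controls of the inhibitor, SNAI2 was 0.11, ZEB2 0.45 and TWIST1 0.68. In HEK293T CPT, CDH2 was 0.012 with filterByExpr, and by the deposited labels CDH2 was 0.64, ZEB2 −2.56 and TWIST1 −7.09. By those labels in ATM KO, CDH1 was −0.78, VIM 0.24 and ZEB2 1.07. Those comparisons mix libraries of both profiles by construction, and the cause of the other shifts was not tested. No paired analysis was run: the groups share no replicate numbers and the labels tie no library of one group to a library of another. Pairing neighbouring library numbers was not tried, and its effect on the p-values was not tested. Depth limits CDH1, ZEB2 and TWIST1 in U2OS and TGFBI in HEK293T cells, all near the floor of 3 counts.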
